A study of Mus musculus with 21 samples.

Results

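The chemokine system of Hepa1-6 tumours was described over 63 protein-coding genes, 44 ligands and 19 receptors, out of 55487 gene identifiers counted. The members were all protein-coding genes whose symbol is Ccl, Cxcl, Ccr or Cxcr followed by a digit, together with Xcl1, Cx3cl1, Xcr1 and Cx3cr1, and no measured value entered that choice. Hepa1-6 is a mouse hepatoma line, and bulk messenger RNA of tumours it formed in C57BL/6 mice was sequenced in 21 libraries. Mice were labelled WT or B-cell depleted and received isotype antibody or anti-PD1 plus anti-CTLA4, here called the combination. WT isotype, WT combination and B-depleted combination had 5 libraries each and B-depleted isotype had 6. The labels give no method of depletion, age or sex, and do not say whether each library is a separate animal, so p-values measure the spread between libraries, which may in part be technical.

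Chemokines are small secreted proteins that guide leukocytes through receptors coupled to inhibitory G proteins. Cxcl9 and Cxcl10, which are induced by interferon gamma, attract activated T cells through Cxcr3. Cxcl16 acts on Cxcr6, the monocyte chemotactic proteins act on Ccr2, and Cxcl1, Cxcl2, Cxcl3 and Cxcl5 attract neutrophils through Cxcr2.

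Library totals ran from 9.52 to 19.17 M counts, with a median of 15.9 M, and levels are given as CPM, counts scaled to the library total. At the lowest total 1 CPM is 9.52 counts. Of the 63 members, 46 passed the filter on low counts (30 ligands and 16 receptors) and 17 did not. The 17 include 8 members at 0 counts in every library, 7 of which are second copies of the Ccl19, Ccl21 and Ccl27 genes on unplaced scaffolds. The Ccr7 ligands of lymph nodes had counts near 0 throughout, with 7 counts of Ccl19, 6 of Ccl21a and 2 of Ccl21b over all 21 libraries. How reads that match several copies of these genes were counted is not given, so low counts need not mean low expression. Ccl20, the ligand of Ccr6, had 115 counts in all, and the neutrophil receptor Cxcr1 had 102. Cxcl11, another Cxcr3 ligand that is annotated as a polymorphic pseudogene and so lies outside the rule, had 1.98 ± 0.867 CPM (SD, n = 5) in WT isotype and 2.44 ± 0.608 CPM (SD, n = 5) in WT combination.

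Some libraries stood apart. B-depleted combination replicate 5, B-depleted isotype replicate 6 and WT combination replicate 5 had the highest summed levels of 6 neutrophil markers, at 754, 414 and 284 CPM. B-depleted combination replicate 5 also held 6.78 CPM of summed B-cell markers, within the range of the WT combination libraries (5.54 to 23.1 CPM), whereas the other 4 libraries of its group held 0.670 to 1.71 CPM. It and B-depleted isotype replicate 3 (2.47 CPM) were above the lowest WT isotype library (1.82 CPM). These are called the B-depleted libraries with B-cell markers below. WT isotype replicates 1 and 2 held 1156 and 1259.5 CPM of 6 hepatocyte and hepatoma markers, against 2778 CPM or more in the other 3 libraries of that group. The defining B-cell genes Cr2, Fcer2a and Blk did not pass the filter. Some calls below were lost when a set of these libraries was dropped. In the WT response Ccl3 (adjusted p = 0.0568) and Cxcl12 (0.140) were not called by edgeR once WT isotype replicates 1 and 2 were dropped. Cxcl12 (0.0702), Cxcl17 (0.0718), Ccl25 (0.0872) and Ccr6 (0.103) were not called once the 3 neutrophil-rich libraries were dropped. In the B-depleted response Ccl6 was not called whether those WT isotype libraries, the neutrophil-rich libraries or the B-depleted libraries with B-cell markers were dropped (0.0743 to 0.260), and Cxcr6 was not called without the neutrophil-rich set (0.108).

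In WT tumours, most chemokine ligands and receptors were higher after the combination than after isotype antibody. Of the 46 members tested, 32 were called at an adjusted p under 0.05, which is 69.6% of them against 50% of all genes tested. There were 26 called higher (56.5%, against 25% of all genes) and 6 called lower (13.0%, against 25%). All 11 receptors called were higher, of 16 tested, and the ligands divided into 15 higher and 6 lower of 30. The median log2 fold change over the 46 members was 1.01, beside -0.00 over all genes tested. Without any overlap between the libraries of the 2 groups, 19 members were higher (15% of all genes) and 3 were lower (14.3% of all genes). The sum over all members ran from 1154 to 1759 CPM in WT isotype and from 2817 to 4893 CPM in WT combination, so those groups did not overlap.

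**Figure D1:**
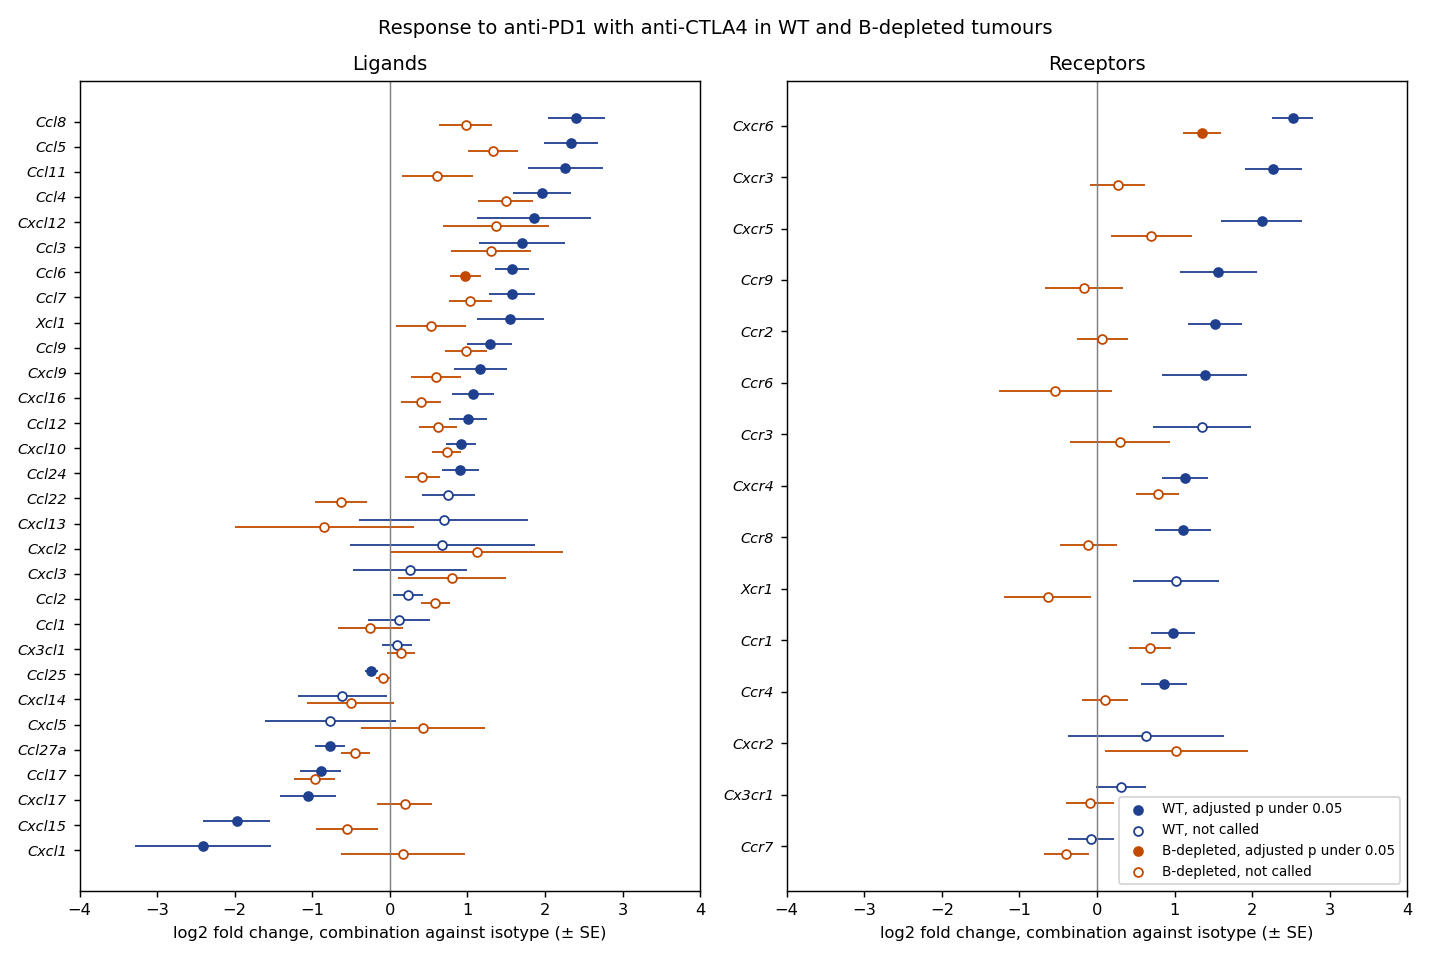
Log2 fold change of ligands (left) and receptors (right) for the combination against isotype, in WT tumours (blue) and in B-depleted tumours (orange). Points are estimates, bars are 1 SE, and filled points have an edgeR adjusted p under 0.05. In B-depleted tumours the filled points are Cxcr6 and Ccl6.

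Among the ligands of T cells, Cxcl9 and Cxcl10 rose in WT tumours. Cxcl10 was at 36.5, 67.3, 48.5, 43.3 and 53.4 CPM in the WT isotype libraries and at 90.8, 102, 86.0, 98.5 and 85.3 CPM in the WT combination libraries. Every combination library was above every isotype library, with a log2 fold change of 0.92 ± 0.19 (SE, adjusted p = 0.000935). Cxcl9 was at 213, 331, 167, 135 and 244 CPM under isotype and at 471, 627, 425, 493.1 and 391 CPM under the combination. Those groups did not overlap either, and the log2 fold change was 1.17 ± 0.34 (SE, adjusted p = 0.0087). Cxcl16, a membrane-bound ligand that is shed by Adam10 and Adam17, rose from 102 ± 48.5 CPM (SD, n = 5) to 211 ± 38.9 CPM (SD, n = 5), with a log2 fold change of 1.07 ± 0.27 (SE, adjusted p = 0.00357). Of the exons of Cxcl16, 18.3% overlap the gene Zmynd15 on the opposite strand, and 5.9% of those of Cxcl10 overlap Art3; whether reads were counted by strand is not given in the sources used here.

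The promoters of the neighbouring genes Cxcl9 and Cxcl10, which rose together, and of Cxcl1, Cxcl2 and Cxcl3, which varied with neutrophil markers, are shown because the motifs in them differ. Each line is the 250 bases before the annotated start from RefSeq, build GRCm38.p6, read 5′ to 3′ on the gene's own strand, with matches to 3 motifs in capitals. They lie at chr5:92328080-92328329, minus strand (Cxcl9) and chr5:92348890-92349139, minus strand (Cxcl10), chr5:90890995-90891244, plus strand (Cxcl1), chr5:90903649-90903898, plus strand (Cxcl2) and chr5:90785851-90786100, plus strand (Cxcl3).
Cxcl9: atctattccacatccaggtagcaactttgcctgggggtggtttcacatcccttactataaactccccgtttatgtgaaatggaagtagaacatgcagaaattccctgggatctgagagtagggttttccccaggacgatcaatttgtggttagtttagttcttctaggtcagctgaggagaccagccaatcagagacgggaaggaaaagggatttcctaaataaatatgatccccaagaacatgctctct
Cxcl10: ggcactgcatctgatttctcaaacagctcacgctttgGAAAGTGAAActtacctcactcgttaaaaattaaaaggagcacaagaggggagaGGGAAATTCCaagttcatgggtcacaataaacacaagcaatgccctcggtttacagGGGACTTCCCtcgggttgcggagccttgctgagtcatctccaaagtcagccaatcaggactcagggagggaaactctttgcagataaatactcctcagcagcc
Cxcl1: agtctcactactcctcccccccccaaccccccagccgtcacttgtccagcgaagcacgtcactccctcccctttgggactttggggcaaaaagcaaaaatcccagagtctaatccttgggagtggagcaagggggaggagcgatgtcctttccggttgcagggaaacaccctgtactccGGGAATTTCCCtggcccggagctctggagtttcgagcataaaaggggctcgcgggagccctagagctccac
Cxcl2: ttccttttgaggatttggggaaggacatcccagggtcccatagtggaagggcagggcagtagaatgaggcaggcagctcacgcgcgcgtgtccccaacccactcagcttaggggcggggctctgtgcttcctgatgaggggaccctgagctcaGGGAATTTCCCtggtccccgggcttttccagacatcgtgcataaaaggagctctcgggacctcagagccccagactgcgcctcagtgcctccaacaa
Cxcl3: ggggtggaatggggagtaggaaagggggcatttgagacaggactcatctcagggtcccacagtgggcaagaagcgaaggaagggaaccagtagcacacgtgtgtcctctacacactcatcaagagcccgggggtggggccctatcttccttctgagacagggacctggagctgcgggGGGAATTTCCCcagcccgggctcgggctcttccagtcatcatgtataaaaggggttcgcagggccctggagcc

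The motifs searched on both strands of 300-base windows (250 before and 50 after the start) were GAS (TTCNNNGAA), the interferon-stimulated response element (ISRE) and the NF-kB consensus. In the Cxcl10 window the capitals mark an ISRE match that begins 213 bases before the start and NF-kB matches that begin 159 and 103 bases before it. The Cxcl1, Cxcl2 and Cxcl3 windows each hold a pair of NF-kB matches that overlap by all but 1 base, beginning 71, 97 and 73 bases before the start. None of the 3 motifs was matched in the Cxcl9 window. Windows were found for 42 of 56 symbols looked for. Some genes have several windows, and a gene counts where any of them matched. NF-kB matches were in 9 of the 42 genes (21.4%), beside 5.14% of all 27025 genes, ISRE matches in 3 (7.14%, beside 3.99%) and GAS matches in 4 (9.52%, beside 9.55%). By single windows the shares were 18.4% of 49 for NF-kB (4.51% of all 32851), 6.12% for ISRE (3.44%) and 8.16% for GAS (8.3%). By the WT response, NF-kB matches were in 3 of 18 genes called higher, 2 of 5 called lower, 3 of 11 not called and 1 of 8 not tested. All these matches are a description of letters and not of binding.

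A group of inflammatory Ccl ligands rose as a whole in WT tumours: Ccl3, Ccl4, Ccl5, Ccl6 and Ccl9, neighbours on chromosome 11, were all called higher. Ccl6, a myeloid chemokine of rodents, was the most abundant member per length, at 195 CPM per kb of exon over all libraries. It was at 252, 192, 197, 250.1 and 223 CPM under isotype and at 669, 520.5, 609, 646 and 842 CPM under the combination. The combination libraries were all higher, at a log2 fold change of 1.58 ± 0.22 (SE, adjusted p = 6.02e-05). Ccl5, which T cells and NK cells make, was at 40.1, 58.7, 24.7, 34.4 and 47.7 CPM under isotype and at 180.4, 217, 148, 233 and 238 CPM under the combination. Its log2 fold change of 2.33 ± 0.35 (SE, adjusted p = 9.29e-05) came without overlap. Ccl4 was at 6.24, 8.98, 5.82, 8.13 and 9.43 CPM and then at 30.9, 24.6, 19.6, 36.7 and 36.1 CPM, again without overlap (log2 fold change 1.96 ± 0.38 SE, adjusted p = 0.000529). Ccl9 rose from 81.1 ± 24.5 to 195 ± 51.5 CPM (SD, n = 5 each; adjusted p = 0.00164), and Ccl3 from 11.7 ± 2.12 to 37.5 ± 11.8 CPM (SD, n = 5 each; adjusted p = 0.0163).

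The other group of Ccl genes on chromosome 11 holds the monocyte and eosinophil attractants, and 4 of its 6 members rose. Ccl8, a relative of the monocyte chemotactic proteins, was at 52.1, 38.0, 28.9, 64.1 and 42.1 CPM under isotype and at 207, 113, 132, 358 and 364 CPM under the combination. The groups stood clear of each other, and the combination libraries spread widely among themselves (log2 fold change 2.403 ± 0.369 SE, adjusted p = 0.000113). Ccl7, a ligand of Ccr2, was at 4.80, 5.79, 5.23, 7.96 and 7.12 CPM and then at 17.8, 13.6, 14.2, 15.7 and 29.5 CPM. No libraries overlapped (log2 fold change 1.57 ± 0.29 SE, adjusted p = 0.000401), and replicate 5 of the combination was far above the other 4. Ccl11, the eosinophil attractant eotaxin, was at 7.34, 2.73, 1.88, 4.87 and 4.80 CPM and then at 22.5, 20.2, 9.12, 20.3 and 30.4 CPM (log2 fold change 2.26 ± 0.48 SE, adjusted p = 0.0011). Ccl12 rose from 3.82 ± 1.05 to 7.56 ± 2.48 CPM (SD, n = 5 each; adjusted p = 0.00261). Ccl2, the main Ccr2 ligand, did not pass: it was at 29.1 ± 6.26 and 33.7 ± 5.44 CPM (SD, n = 5 each), a log2 fold change of 0.23 ± 0.19 (SE, adjusted p = 0.33).

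**Figure D2:**
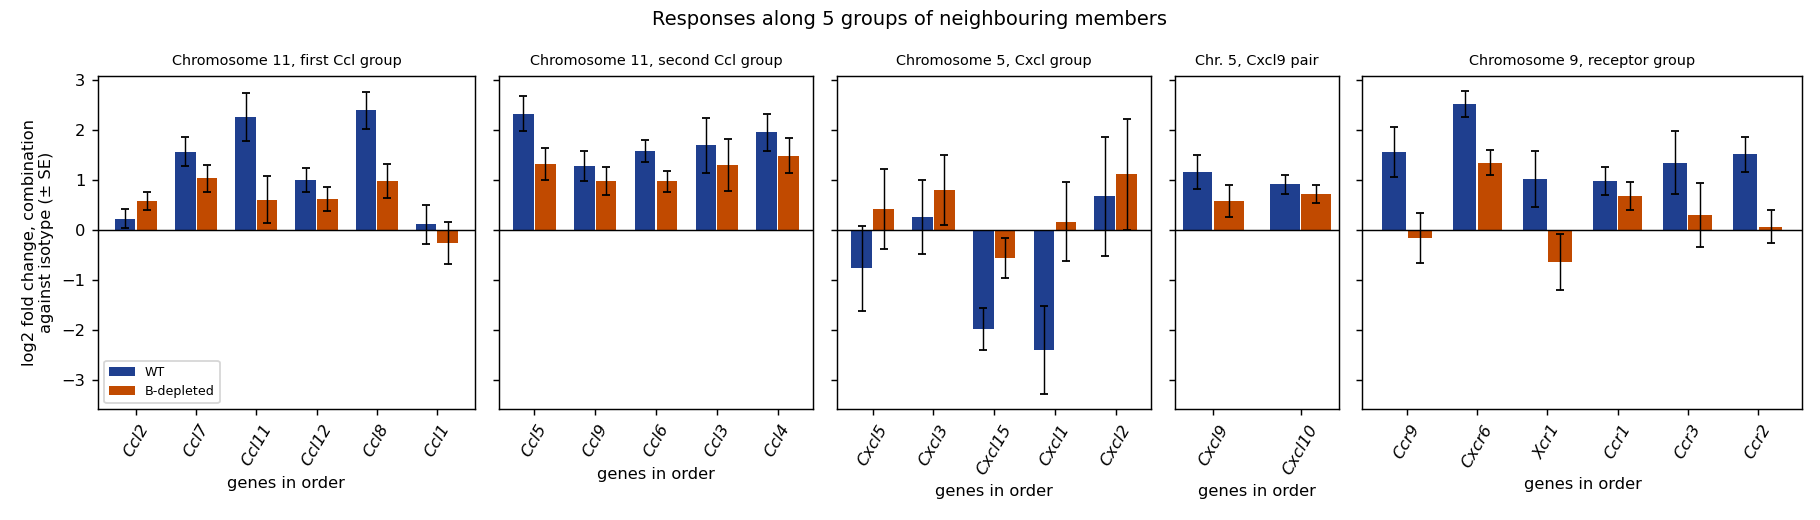
Log2 fold change (bars, with 1 SE) of the combination against isotype along 5 groups of neighbouring members, in chromosome order, for WT (blue) and B-depleted (orange) tumours. The 5 genes from Ccl5 to Ccl4 are all above 0 in both, and the Cxcl1 group on chromosome 5 is not.

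Other ligands that rose in WT tumours were Cxcl12, the stromal ligand of Cxcr4 (log2 fold change 1.86 ± 0.73 SE, adjusted p = 0.0417), Ccl24, a further eosinophil attractant (0.91 ± 0.24 SE, adjusted p = 0.00448), and Xcl1, which attracts cross-presenting dendritic cells through Xcr1 (1.55 ± 0.44 SE, adjusted p = 0.0067). Xcl1 was low, at 0.497 ± 0.412 CPM under isotype and 1.43 ± 0.594 CPM under the combination (SD, n = 5 each), so its estimate rests on few counts. The call of Cxcl12 was lost in 7 of the 21 refits that each left out 1 library, with an adjusted p of 0.127 without WT combination replicate 5. The 5 fibroblast markers summed to 1973 to 4229 CPM under isotype and 6750.2 to 24907 CPM under the combination, and their part in the Cxcl12 result was not tested. Ccl22, a Ccr4 ligand of dendritic cells and macrophages, was at 8.43 ± 4.05 and 13.97 ± 2.55 CPM (SD, n = 5 each) and did not pass (adjusted p = 0.0677).

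The 6 ligands that fell in WT tumours were Cxcl15, Ccl27a, Ccl17, Cxcl17, Cxcl1 and Ccl25. Cxcl15, known as lungkine, was at 18.9, 16.8, 46.6, 38.4 and 30.9 CPM under isotype and at 14.6, 3.81, 13.0, 4.45 and 2.41 CPM under the combination. Those libraries did not overlap, and the level fell by 1.98 ± 0.43 on the log2 scale (SE, adjusted p = 0.0012). The 6 hepatocyte and hepatoma markers, 5 of which fell in the same comparison, summed to 1156 to 4323 CPM under isotype and 165 to 1258 CPM under the combination. Their part in the Cxcl15 result was not tested. Ccl27a, a ligand of Ccr10, was at 3.75, 3.73, 3.18, 4.52 and 4.19 CPM and then at 2.699, 2.47, 2.52, 1.78 and 1.69 CPM (log2 fold change -0.77 ± 0.19 SE, adjusted p = 0.0026). Ccl17, the second Ccr4 ligand, was at 3.73 ± 0.356 and then 1.98 ± 0.504 CPM (SD, n = 5 each; adjusted p = 0.00951), without overlap. Ccl25, the gut ligand of Ccr9, fell by 0.24 ± 0.09 on the log2 scale (SE, adjusted p = 0.0307), and lost that call in 5 of the 21 refits without 1 library. Cxcl17 lost its call in 3 of them, with an adjusted p of 0.0956 without WT isotype replicate 5.

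Among receptors in WT tumours, Cxcr6, which marks resident and effector T cells, had the smallest p of all members. It was at 11.6, 14.1, 11.5, 11.2 and 18.6 CPM under isotype and at 66.5, 71.1, 50.4, 101 and 89.98 CPM under the combination, a 5.74-fold rise (log2 fold change 2.52 ± 0.26 SE, adjusted p = 1.33e-05). The lowest combination library was well above the highest isotype library. Cxcr3, the receptor of Cxcl9 and Cxcl10, was at 3.75, 5.85, 1.71, 3.09 and 3.70 CPM and then at 12.1, 19.3, 9.88, 23.7 and 20.9 CPM (log2 fold change 2.27 ± 0.37 SE, adjusted p = 0.000164). The libraries of the groups did not overlap for Cxcr3 either.

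Ccr2, the receptor of inflammatory monocytes, was at 88.2, 84.8, 29.0, 42.8 and 45.7 CPM under isotype and at 134, 202, 92.3, 168 and 224 CPM under the combination (log2 fold change 1.52 ± 0.35 SE, adjusted p = 0.00172). Its isotype libraries fell into the higher replicates 1 and 2, which stood apart, and the other 3. Cxcr4, the receptor of Cxcl12, was at 23.6, 21.6, 14.1, 14.03 and 14.6 CPM and then at 27.9, 35.1, 25.7, 40.9 and 60.4 CPM (log2 fold change 1.13 ± 0.30 SE, adjusted p = 0.00436). Ccr1 was at 42.1, 45.9, 30.9, 45.0 and 44.0 CPM and then at 77.5, 72.4, 66.2, 67.1 and 121 CPM (log2 fold change 0.98 ± 0.29 SE, adjusted p = 0.00862). None of these receptors overlapped between the groups. A further 5 receptors called, Cxcr5 of B cells and follicular helper T cells, Ccr9 of gut-homing cells, Ccr8 and Ccr4 of regulatory and type 2 helper T cells, and Ccr6, had log2 fold changes from 0.86 to 2.12. Cxcr5, Ccr4 and Ccr6 rest on few counts, with means of 0.497, 0.595 and 0.481 CPM in WT isotype. The call of Ccr6 was lost in 7 of 21 refits without 1 library and that of Ccr4 in 4, and 18.8% of the exons of Ccr9 overlap a transcript on the opposite strand, as do 18.7% of those of the ligand Xcl1. Ccr3, Xcr1, Cx3cr1, Cxcr2 and Ccr7 were not called.

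**Figure D3:**
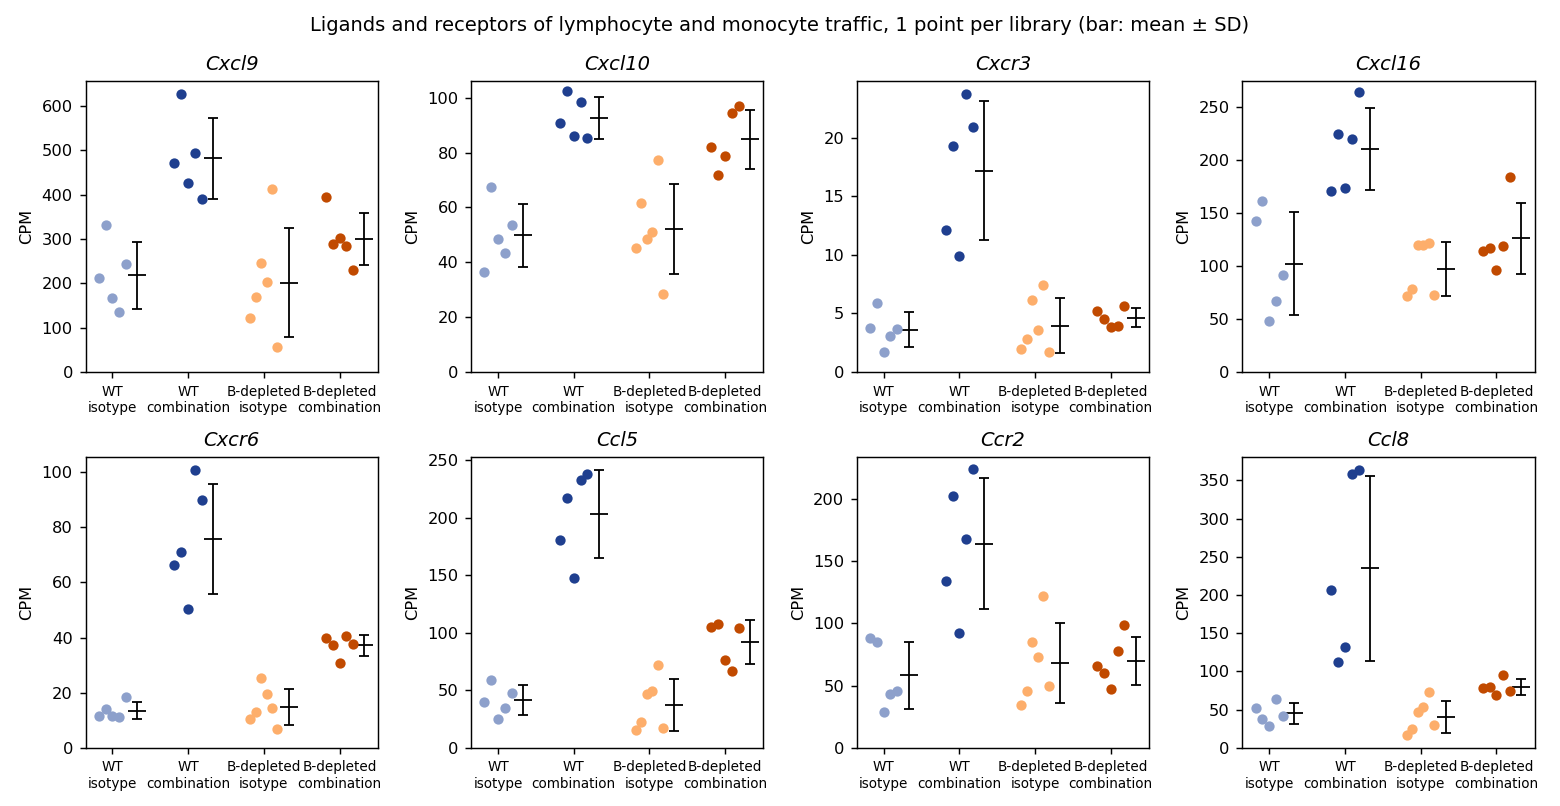
CPM of 8 members in each library, by group; points are libraries and bars are the mean ± SD. Cxcr3, Cxcr6 and Ccl5 are higher in every WT combination library than in any library of the other 3 groups.

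In B-depleted tumours, 2 of the 46 members were called, both higher: Cxcr6 and Ccl6. That is 4.35% of the members, where 0.341% of all genes were called and 0.304% were called higher. A further reading at an unadjusted p under 0.05 gave 16 members, beside 14.3% of all genes. Cxcr6 was at 6.68, 13.7 and 25.2 CPM (lowest, median and highest of 6) in B-depleted isotype and at 39.9, 37.2, 30.7, 40.6 and 37.6 CPM in B-depleted combination. No combination library reached down to the isotype range, and the log2 fold change was 1.35 ± 0.24 (SE, adjusted p = 0.0176). The call of Cxcr6 was lost without B-depleted isotype replicate 1 (0.0618) or 2 (0.0565) or B-depleted combination replicate 5 (0.0532). Ccl6 was at 145, 183 and 246 CPM (lowest, median and highest) and then at 379, 192, 425, 289 and 526.4 CPM, with replicate 2 inside the isotype range (log2 fold change 0.98 ± 0.21 SE, adjusted p = 0.0419). Its call held in only 4 of the 21 fits that each dropped a library, and the adjusted p reached 0.138 without B-depleted combination replicate 5.

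Ccl4 had the next smallest p. It was at 8.34, 10.1 and 11.3 CPM (lowest, median and highest) under isotype and at 17.3, 12.4, 17.4, 17.1 and 72.4 CPM under the combination. The groups did not overlap, as was so for 2 members in all (1.14% of all genes), but 1 library was far above the rest and the call was missed (adjusted p = 0.0668). Ccl5 (1.33 ± 0.32 SE, adjusted p = 0.0725) and Cxcl10 (0.73 ± 0.18 SE, adjusted p = 0.0785) had positive log2 fold changes that also missed the threshold. For Cxcr3 the estimate was 0.27 ± 0.35 (SE, adjusted p = 0.753), and for Ccr2 it was 0.07 ± 0.33 (SE, adjusted p = 0.942). The median over the 46 members was 0.42, beside 0.02 over all genes. Without the 3 libraries rich in neutrophil markers that median was 0.09, and 0 members were called, with 9 at an unadjusted p under 0.05. DESeq2 called 8 members in this comparison, 7 higher and 1 lower, with 388 genes called in all, and limma voom called 2, with 102 in all, beside 65 genes by edgeR.

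Under isotype antibody, B-depleted and WT tumours did not differ in any member past the threshold. edgeR, DESeq2 and limma voom each called 0 of 46, as edgeR did for 0% of all genes. At an unadjusted p under 0.05 there was 1 member by edgeR, Cxcl17, a mucosal chemokine (2.95% of all genes). Cxcl17 was at 1.49, 1.73, 1.71, 2.86 and 4.69 CPM in WT isotype and at 0.916, 1.58 and 2.17 CPM (lowest, median and highest) in B-depleted isotype, overlapping, with a log2 fold change of -0.72 ± 0.34 (SE, adjusted p = 0.9998). Ccl12 was at 2.98, 3.13, 3.23, 5.44 and 4.30 CPM against 1.95, 2.69 and 3.98 CPM, and Ccr7, the receptor of mature dendritic cells and naive T cells, at 15.8, 14.7, 3.94, 5.61 and 9.38 CPM against 4.90, 6.59 and 10.7 CPM. These groups overlapped as well. Estimates over the members ran from -1.05 for Cxcl1 to 1.35 for Cxcl2, and the misses do not show equal levels. B-cell markers were low in both groups and also not called (0 of 4 tested). The 7 markers summed to 1.82 to 3.92 CPM in WT isotype and 0.438 to 2.47 CPM in B-depleted isotype, which overlapped.

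Under the combination, 16 members differed between B-depleted and WT tumours, 15 of them lower in B-depleted tumours. The share called was 34.8%, beside 29.1% of all genes. Those lower were 32.6%, beside 13.5% of all genes, and the 1 higher member, Cxcl15, was 2.17%, beside 15.5%. Of the 6 hepatocyte and hepatoma markers 5 were higher in the same comparison, and their part in the Cxcl15 value was not tested. In 11 members every B-depleted library was below every WT library (6.03% of all genes). The median log2 difference over the 46 members was -0.69, beside 0.00 over all genes. The libraries of WT combination enter both this comparison and the WT response, so the estimates of these comparisons are not independent.

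Cxcr3 had the smallest p. The B-depleted combination libraries were at 5.25, 4.54, 3.87, 3.90 and 5.64 CPM, all below the lowest WT combination library at 9.88 CPM, with a log2 difference of -1.90 ± 0.37 (SE, adjusted p = 0.00527). Ccl8 was at 78.4, 80.0, 69.0, 95.4 and 73.8 CPM in B-depleted combination, all below the lowest WT combination library at 113 CPM (-1.58 ± 0.36 SE, adjusted p = 0.00828). Cxcr6 was at 37.2 ± 3.90 CPM (SD, n = 5) against 75.8 ± 19.9 CPM (SD, n = 5), without overlap (-1.04 ± 0.25 SE, adjusted p = 0.0105). Ccr6, which B cells and type 17 T cells carry, was at 0.210, 0, 0.149, 0.0812 and 0.428 CPM against 0.619, 1.52, 0.566, 1.48 and 2.09 CPM (-2.79 ± 0.66 SE, adjusted p = 0.00955). Ccr6 passed the filter only through the WT libraries, so a difference was built into its being tested. The members lower in B-depleted tumours also included Ccl6, Ccl11, Ccl22, Ccr2, Ccl5, Ccr8, Ccr9, Ccl12, Xcr1 and Cxcl16, with log2 differences from -1.90 to -0.75. Some of these calls were lost when 1 library was left out: Cxcl16 in 9 of 21 such refits, Xcr1 in 8, Ccl12 in 5, Ccr9 in 4, and Ccl5 and Ccr2 in 1 each, with the highest adjusted p at 0.115 for Cxcl16 without WT combination replicate 5. The higher call of Cxcl15 was lost in 8 of them. Xcr1 was also not called without the neutrophil-rich set (adjusted p = 0.0822) or the B-depleted libraries with B-cell markers (0.0617). Ccl5 was at 105, 107, 76.4, 66.4 and 104 CPM, all below the WT range. Cxcl10 did not differ past the threshold, at 84.8 ± 10.7 against 92.6 ± 7.60 CPM (SD, n = 5 each; -0.14, adjusted p = 0.596).

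The count of 16 was 24 without B-depleted combination replicate 5, the library with neutrophil and B-cell markers, and 24 also without both B-depleted libraries with B-cell markers, while the genes called in all went from 5545 to 7606 and 7603. It was 9 without WT combination replicate 4 or replicate 5, with 2182 and 2251 genes called in all, and 10 without B-depleted combination replicate 3, with 3042. Among the members gained without B-depleted combination replicate 5 was Ccl4, at a log2 difference of -0.91 (adjusted p = 0.00233) in place of -0.10.

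The difference between the antibody responses was tested directly by the interaction term. edgeR called 0 of 46 members (0.0262% of all genes), with 15 at an unadjusted p under 0.05 (25.6% of all genes), whereas DESeq2 called 5 members among 1181 genes and limma voom 0 among 6, beside 5 genes by edgeR. Cxcr3 had the smallest p, at an estimate of -2.01 ± 0.51 for the B-depleted minus the WT response (SE, adjusted p = 0.0745). Cxcr6 (-1.17 ± 0.35 SE, adjusted p = 0.0919) and Ccr2 (-1.45 ± 0.48 SE, adjusted p = 0.103) followed. Cxcr3 was called without WT combination replicate 1 (0.0472) or 3 (0.0266) or B-depleted combination replicate 5 (0.0346). With WT isotype replicates 1 and 2 dropped, edgeR called 7 members among 2007 genes.

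The neutrophil-attracting ligands were high in individual libraries, and the genes in this paragraph were chosen after their values were seen. In B-depleted combination replicate 5, Cxcl2 was at 304 CPM, Cxcl3 at 240.0 CPM, Cxcl5 at 73.3 CPM and their receptor Cxcr2 at 71.0 CPM. The other 4 libraries of that group held 4.31 to 17.4 CPM of Cxcl2 and 1.46 to 7.55 CPM of Cxcr2. Of the 6 libraries with the highest neutrophil marker sum, all 6 were among the 6 highest for Cxcl2, 5 for Cxcl3 and Cxcr2, and 4 for Cxcl1, Cxcl5 and Ccl3. In B-depleted isotype, Cxcl2 stood at 65.0, 38.3 and 86.2 CPM in replicates 1, 2 and 6 and at 2.38 to 3.26 CPM in the other 3. Cxcl1, called lower in the WT response (-2.41 ± 0.88 SE, adjusted p = 0.029), was at 1.99 and 0.998 CPM in WT isotype replicates 1 and 2, which stood apart, and at 10.6, 19.8 and 16.2 CPM in the other 3. Its call was lost in 7 of 21 refits without 1 library. Among the neutrophil markers themselves, 1 rose, 1 fell and 4 did not pass in WT tumours.

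**Figure D4:**
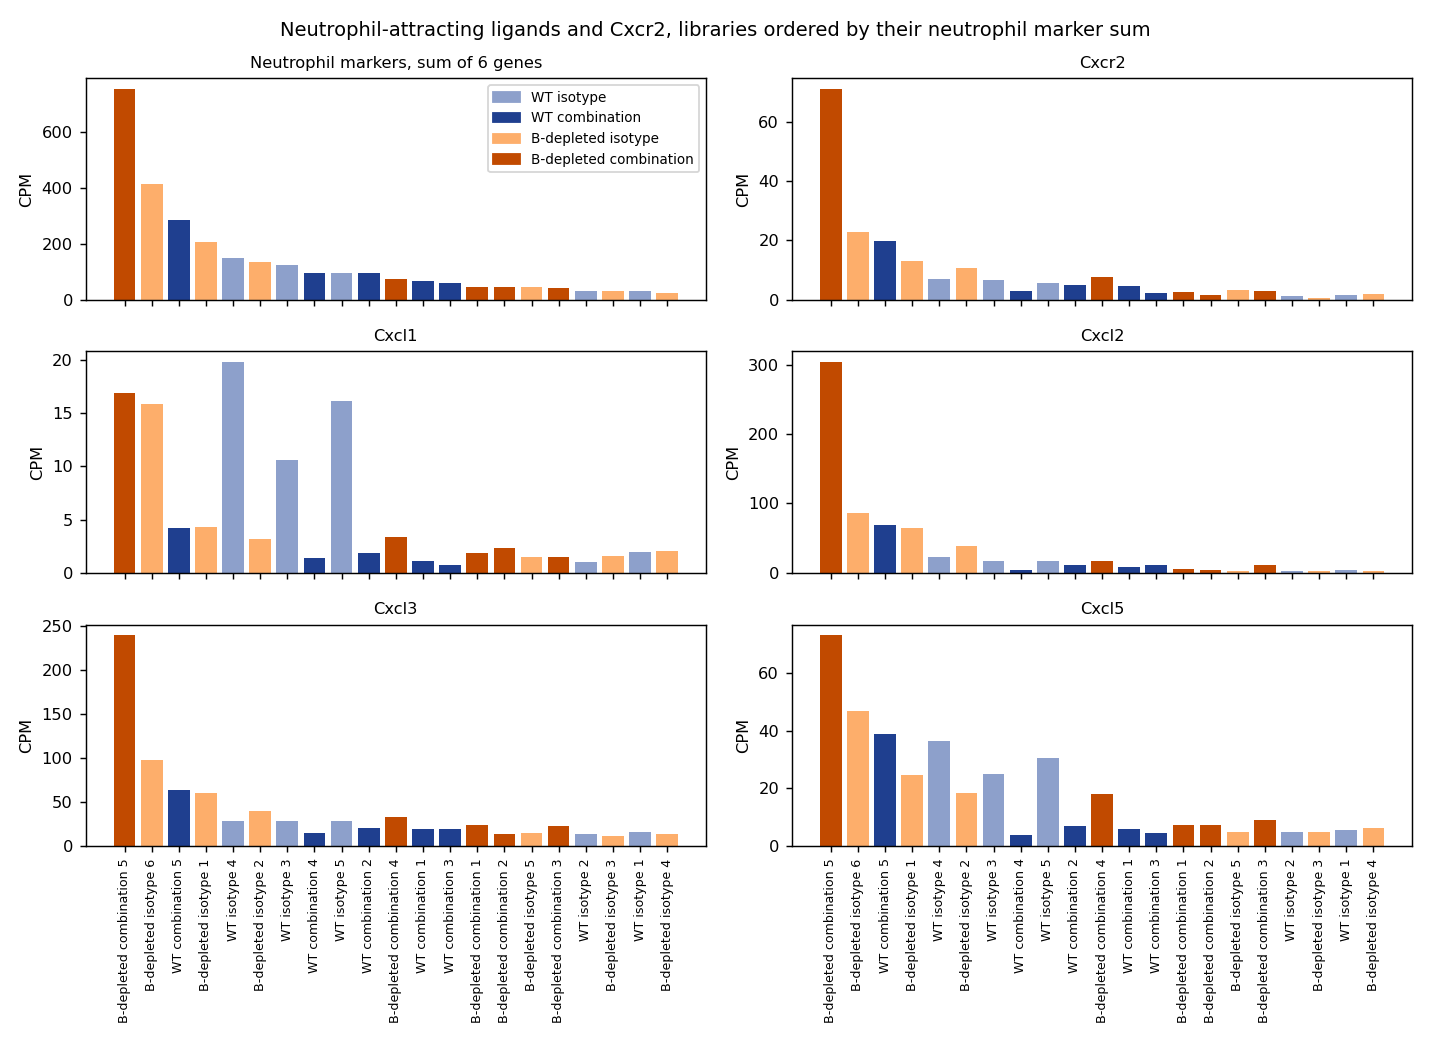
CPM of the summed neutrophil markers, Cxcr2 and 4 of its ligands in each library (bars), with libraries in the order of the marker sum and coloured by group. B-depleted combination replicate 5, at 754 CPM of markers, is the highest library for every gene but Cxcl1.

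Markers of several leukocyte types, but not of all, moved with the chemokine genes. In the WT comparison all 9 T-cell markers, all 7 macrophage and monocyte markers and the 4 B-cell markers tested rose. So did 4 of 5 fibroblast markers and 3 of 5 NK-cell markers, where 25% of all genes rose. Of 6 conventional dendritic-cell markers 1 rose and 0 fell. Of 4 mature dendritic-cell markers 1 rose and 1 fell, and of 6 neutrophil markers 1 rose and 1 fell. In B-depleted tumours 2 of the 9 T-cell markers rose. The T-cell markers summed to 77.2 to 152 CPM in WT isotype, 348 to 560 CPM in WT combination, 52.5 to 192 CPM in B-depleted isotype and 206 to 286 CPM in B-depleted combination. Under the combination 8 of 9 T-cell markers, 6 of 7 macrophage markers and all 4 B-cell markers were lower in B-depleted than in WT tumours. So were 4 of 6 conventional dendritic-cell and 2 of 5 NK-cell markers, but 0 of 6 neutrophil and 0 of 4 mature dendritic-cell markers. In bulk tumour RNA, more cells of a type and more RNA per cell cannot be told apart. The 4 Y-linked genes Ddx3y, Eif2s3y, Kdm5d and Uty rose too, from sums of 47.6 to 79.2 CPM in WT isotype to 134.7 to 250.5 CPM in WT combination. With their sum as a covariate, edgeR called 0 of 46 members in WT, with 11 at an unadjusted p under 0.05, and 0 between the combination groups, with 3. The sums do not overlap between the WT groups, so the antibodies and that sum cannot be told apart there. Of 4 mitochondrially encoded genes, 3 fell in WT tumours, from 13411 to 17928 CPM in sum to 7883 to 15379 CPM.

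To set the T-cell members against the T-cell markers, 6 genes chosen after their values were seen were expressed as CPM per 100 CPM of the 9 markers, and 24 comparisons between groups were made by 2-sided exact permutation tests. Cxcr3 stood at 2.90 ± 0.635 (SD, n = 5) in WT isotype, 3.65 ± 0.733 (n = 5) in WT combination, 3.29 ± 0.733 (n = 6) in B-depleted isotype and 1.88 ± 0.292 (n = 5) in B-depleted combination. All 5 B-depleted combination libraries, at 1.59 to 2.30, lay below every library of both groups they were compared with (exact permutation p = 0.00794 against WT combination and 0.00433 against B-depleted isotype). Cxcr6 stood at 15.1 ± 1.37 and 16.3 ± 1.45 (SD, n = 5 each) in B-depleted and WT combination, which overlapped (exact permutation p = 0.214). The ratio of Ccl5 was higher in WT combination than in WT isotype, at 44.1 ± 2.77 and 33.5 ± 3.11 (SD, n = 5 each), without overlap (exact permutation p = 0.00794). The smallest adjusted p over the 24 exact permutation tests was 0.0635, so none passed 0.05.

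**Figure D5:**
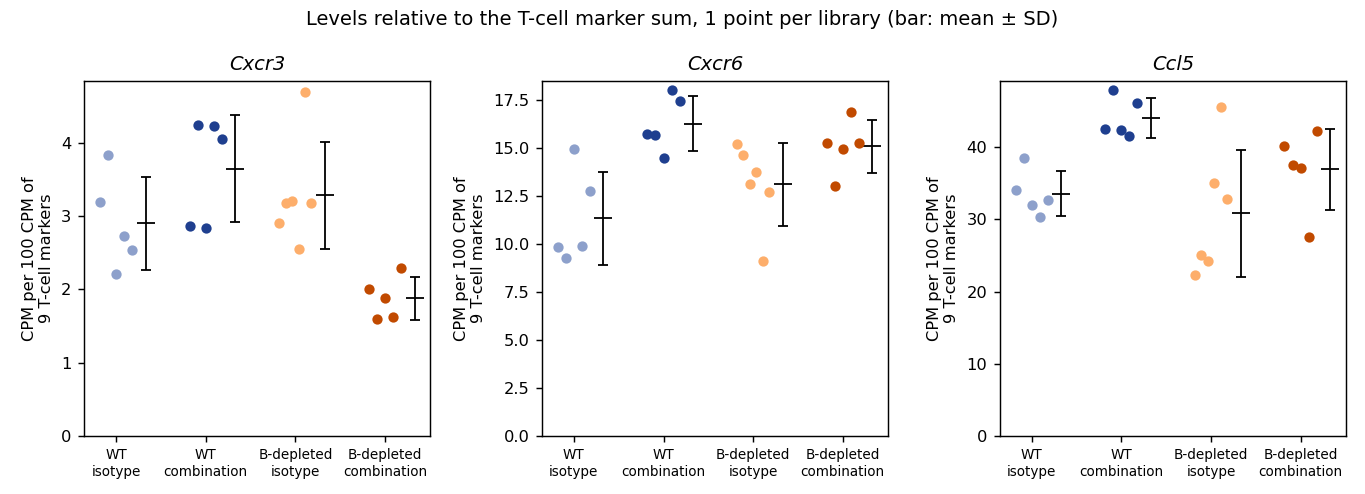
CPM of Cxcr3, Cxcr6 and Ccl5 per 100 CPM of 9 summed T-cell markers; points are libraries by group and bars are the mean ± SD. For Cxcr3 the B-depleted combination libraries, at 1.59 to 2.30, lie below every WT combination and B-depleted isotype library and overlap the WT isotype range, whose lowest library is at 2.21; for Cxcr6 they lie among the other groups.

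The genes that act behind the receptors rose with them in WT tumours. Of 20 signalling genes, 17 rose and 1 fell, with a median log2 fold change of 1.01. Over all genes 25% were called higher and 25% lower in that comparison, which is the share to set beside each list here. Those that rose included Rac2, a GTPase of leukocyte movement (1.43 ± 0.20 SE, adjusted p = 5.97e-05), and the G-protein subunit Gng2 (1.37 ± 0.20 SE, adjusted p = 7.83e-05). Between the combination groups 12 of the 20 were lower in B-depleted tumours and 0 were higher, beside 13.5% lower and 15.5% higher over all genes. Of 9 genes of the interferon-gamma arm, 8 rose and 1, Jak2, fell in WT tumours; Ifng itself rose by 2.33 ± 0.32 on the log2 scale (SE, adjusted p = 5.85e-05), and it also passed in B-depleted tumours (1.51 ± 0.31 SE, adjusted p = 0.0373). Of the NF-kB and TNF family arm in WT tumours, 3 of 13 genes were higher (Tnf, Lta and Ltb) and 3 lower (Nfkb2, Ltbr and Map3k14). Both counts are near the shares over all genes, and the median was 0.17. Of the proteases that shed or trim chemokines, 5 of 7 rose, Adam17, Mmp12 and Mmp2 among them. Of 4 atypical receptors tested 1 rose, no more than the share over all genes: the scavenger Ackr2 (1.06 ± 0.39 SE, adjusted p = 0.0305). Under isotype 0 genes of these lists differed between B-depleted and WT tumours. Under the combination, 4 of 9 interferon-gamma genes, 2 of 7 proteases, 2 of 4 atypical receptors and 1 of 13 NF-kB or TNF family genes were lower in B-depleted tumours. Higher there were 1 interferon-gamma gene and 2 NF-kB or TNF family genes.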

How the data were processed

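Reads from poly(A)-selected, stranded libraries of frozen tumours were processed by the submitters with cutadapt 2.4, STAR 2.7.2a and the genome GRCm38, per the submitters' processing notes; no source used here names the counting program, its strand setting or the annotation. The deposited table holds raw counts per Ensembl gene identifier, 1 column per library, and these counts were used unchanged. Identifiers were matched without version to an annotation of GRCm38, which gave symbols for 55227 of 55487; the other 260 held 0.0183% of counts and stayed in the fits. Libraries were grouped by their titles.

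Counts were fitted in R 4.3.3 with edgeR 4.0.16: filterByExpr by group (about 0.629 CPM in 5 libraries; 19061 genes kept), TMM scaling (0.953 to 1.029) and the robust quasi-likelihood F test with all 21 libraries and 4 group means in a single fit, with no covariate (common biological coefficient of variation 0.246). Benjamini-Hochberg adjustment ran over all genes tested, and a gene was called under 0.05. Alternatives were DESeq2 1.42.0, limma 3.58.1 voom, other scalings and filters, blocks, depth thinning, a Y-linked covariate and leaving out libraries. CPM is of the library total without scaling factors; CPM per kb divides by merged exon length. The scripts' test was checked on simulated data. Replicates were compared pairwise (45 pairs): r lay between 0.9427 and 0.988, and 0 pairs were identical. Count noise alone is larger for members under 1 CPM, about 9.52 counts in the shallowest library.

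The members, gene lists and tests were chosen with earlier results of these data known. Values in every library are given for up to 10 ligands and 6 receptors called in WT tumours with the smallest p and a mean of at least 1 CPM, for up to 4 called members (or the 3 of smallest p) in other comparisons, and for their partners; other members are given by counts and ranges. Protein sequences were not used here, and some results are not reported here.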

Additional observations from a re-analysis of the deposited data

Results flagged for a closer look

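Dixon's criterion was applied within each group of 5 or 6 libraries. It compared the highest or lowest CPM of each tested member reported here with the rest. Chance meets it in about 1 of 20 groups of normally distributed values. The CPM were not put on a log scale and the members share libraries, so that share need not hold here. The criterion was met by 26 of 180 groups, in 17 members. Of these, 12 were in B-depleted combination replicate 5: Ccl3 (170 CPM), Ccl4 (72.4), Ccr1 (144), Cxcl1 (16.9), Cxcl12 (588), Cxcl14 (55.9), Cxcl16 (184), Cxcl2 (304), Cxcl3 (240), Cxcl5 (73.3), Cxcr2 (71.0) and Cxcr4 (56.6). That library had the highest summed neutrophil markers of all 21 (754 CPM), and 23625 CPM of fibroblast markers against at most 7980 CPM in the rest of its group; the part of these cells in the values was not tested. In WT combination replicate 5 there were 8: Ccl7 (29.5 CPM), Ccl9 (285), Ccr1 (121), Cxcl13 (25.3), Cxcl2 (68.4), Cxcl3 (63.1), Cxcl5 (38.9) and Cxcr2 (19.7). B-depleted isotype replicate 6 stood out for Cxcl1 (15.9 CPM) and Cxcl13 (11.1 CPM). The remaining values, each the only one in its library, were Ccl22 in WT combination replicate 2 (18.5 CPM), Ccl25 in B-depleted isotype replicate 2 (57.0 CPM), Cxcl13 in B-depleted combination replicate 4 (4.55 CPM) and Ccr1 in WT isotype replicate 3 (30.9 CPM, the one low value).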

How the results depend on the processing

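Other scalings, limma voom and DESeq2 gave 32 or 33 members called in the WT response and 16 to 18 between the combination groups. With no filter on low counts the numbers were lower, at 27 and 11. After thinning to the shallowest library they were 28 and 15, of 44 members tested. In B-depleted tumours the count of 2 (all higher unless stated) became 8 with DESeq2 (7 higher, 1 lower), 1 with no filter, without the B-depleted libraries with B-cell markers or with WT isotype replicates 1 and 2 dropped, and 0 with the other groups removed from the fit, under the Y-linked covariate or without the 3 neutrophil-rich libraries. The interaction gave 5 with DESeq2 (all 5 lower), 1 without the libraries with B-cell markers and 7 with WT isotype replicates 1 and 2 dropped, all lower. Between the combination groups, 24 were called without the libraries with B-cell markers (23 lower), where Ccl3 reversed to -0.83 (adjusted p = 0.0376), and the 1 higher member was lost (0) with no filter, with the other groups removed and after thinning. The sets of neutrophil-rich, B-cell-marker and WT isotype libraries left out were chosen after seeing the data.

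With the Y-linked covariate 0 members were called in any comparison. The member median became -0.14 in WT, -0.0509 in B-depleted tumours and 0.0433 for the interaction, and in WT Cxcr4 (-0.28), Cxcl12 (-1.99), Cxcr5 (-0.19), Ccr9 (-1.03), Ccr2 (-0.25), Cxcl16 (-0.0869) and Ccr6 (-1.62) reversed, none past the threshold; over all genes the WT count went from 9529 to 77. The cause was not tested.

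Leaving out 1 library gave 27 to 33 members called in WT (23 to 27 higher, 4 to 6 lower), 0 to 4 in B-depleted tumours (0 to 4 higher), 9 to 24 between the combination groups (0 to 1 higher, 9 to 23 lower) and 0 to 5 for the interaction (0 to 5 lower): 5 without B-depleted combination replicate 5, 3 without WT combination replicate 3 and 1 without WT combination replicate 1.

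Correlations of same-numbered libraries were uneven (r from -0.38 to 0.55 over pairs). They were not set against those of other pairs, so they do not settle whether the numbers pair libraries. With the title number as a replicate block 32, 2, 0 and 19 members were called in the WT, B-depleted, isotype and combination comparisons, and with the description number 30, 0, 0 and 16.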

Other observations

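Ligands and receptors that pair moved unevenly. In WT tumours both sides of Cxcl16 and Cxcr6, Cxcl12 and Cxcr4, and Cxcl9 or Cxcl10 and Cxcr3 were called higher, whereas Cxcr5 was called higher with its ligand Cxcl13 not called (log2 fold change 0.69 ± 1.09 SE, adjusted p = 0.614), Ccr9 higher with its ligand Ccl25 lower, and Ccr4 higher with its ligand Ccl17 lower. The other Ccr4 ligand, Ccl22, had a positive estimate and was not called by edgeR (0.755, adjusted p = 0.0677). Cxcl13 was at 25.3 CPM in WT combination replicate 5 and at 0.508 to 1.26 CPM in the other 4 libraries of that group. The fractalkine pair, Cx3cl1 (0.09 ± 0.19 SE, adjusted p = 0.723) and Cx3cr1 (0.30 ± 0.32 SE, adjusted p = 0.444), did not pass in WT tumours. These pairs were chosen after their values were seen.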
